A study of Homo sapiens with 6 samples.

Results

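The MYCN-amplified neuroblastoma cell lines of the series were split by their level of DDX1, a gene that lies on chromosome 2 close to MYCN and is carried along by some MYCN amplicons. Neuroblastoma is a childhood tumor of the sympathetic nervous system, and CHP134, SK-N-DZ, BE(2)-C and Kelly are established lines with an amplified MYCN gene. The members were chosen by the DDX1 value itself: lines above 1000 in the normalized abundance table were taken as DDX1-high (CHP134 and SK-N-DZ) and the others as DDX1-low (BE(2)-C and Kelly). This gave 2 lines against 2, or 4 of the 6 lines sequenced. The remaining lines, SK-N-AS and SY5Y, are MYCN-non-amplified and were used only for reference. No line was treated. Kelly and CHP134 were grown in RPMI medium and the other lines in DMEM, both with fetal calf serum, so that each medium holds 1 DDX1-high and 1 DDX1-low line. The methods of the study add non-essential amino acids to the DMEM of SK-N-DZ and SK-N-AS, which the labels do not mention. BE(2)-C is a clonal subline. The sample labels name the cell line only, and the MYCN status comes from the methods of the study.

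DDX1 encodes a DEAD-box RNA helicase that works in the human tRNA ligase complex, where it helps the ligase RTCB to join the pieces of spliced tRNAs. NBAS, its neighbor, encodes a protein of a tether for vesicles that return from the Golgi to the endoplasmic reticulum, and also takes part in nonsense-mediated mRNA decay. MYCN encodes the N-Myc transcription factor. An amplicon is a stretch of DNA present in many copies, and the genes on it differ from tumor to tumor.

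RNA depleted of ribosomal RNA was sequenced once per line, so that every spread below is a spread between cell lines, and a single culture stands for each line. The values were read as FPKM (fragments scaled by transcript length and by library size), and the reads behind each value are unknown. Their sum ran from 777111 to 999801 in the 4 lines, of which the small nuclear RNA loci RNU4-1 and RNU4-2 took 22.6% to 41.0%. Spearman correlations between pairs of the 4 lines across the tested loci ran from 0.835 to 0.88, and the CHP134 and SK-N-DZ pair (0.877) did not stand above Kelly and SK-N-DZ (0.88). Among the regulators of sympathetic neuroblasts, HAND2 was at 65.8 to 145 FPKM and GATA3 at 9.36 to 17.0 FPKM in the 4 lines. Other sympathetic markers were not shared by all. TH reached 1 FPKM in Kelly only, DBH was below 1 FPKM in CHP134, and TFAP2B was below it in both DDX1-high lines. Of 11 epithelial markers 6 were in the table, with a sum of 0.52 to 3.51 FPKM in the 4 lines. Of 13 endothelial and blood cell markers 2 were in the table: the leukocyte marker PTPRC was at 0.0658 FPKM or less in the 4 lines (108 FPKM in SK-N-AS), and CD68, which shares its locus with the translation factor gene EIF4A1, was at 532 to 607 FPKM. Of 14 Schwann cell and melanocyte markers 7 were in the table, with sums of 66.7 and 89.9 FPKM in the DDX1-high lines and 87.6 and 89.6 FPKM in the DDX1-low lines.

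DDX1 was at 95.1 and 110 FPKM in the low lines BE(2)-C and Kelly and at 10561 and 3295 FPKM in the high lines CHP134 and SK-N-DZ. The split was thus wide, with 3295 FPKM just inside the threshold and 110 FPKM just outside it. In CHP134 DDX1 was the locus of rank 5 among all 19170, and in SK-N-DZ of rank 11, against rank 711 in BE(2)-C and 694 in Kelly. It took 1.36% of the FPKM sum of CHP134 and 0.423% of that of SK-N-DZ, and the low lines were at 0.00952% and 0.013%. SK-N-AS and SY5Y, at 43.3 and 48.5 FPKM, lay below all 4 amplified lines. Since these values made the groups, they are given without a test.

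NBAS, 29848 bases from DDX1 (chr2:15307032-15701454, hg19, on the opposite strand), was at 12.9 and 19.8 FPKM in the low lines BE(2)-C and Kelly and at 83.9 and 81.4 FPKM in the high lines CHP134 and SK-N-DZ. Both high lines lay above both low lines, by 2.33 on the log2 scale on average, while SK-N-AS and SY5Y were at 11 and 8.39 FPKM. The ratio of DDX1 to NBAS reached 126 for CHP134 and 40.5 for SK-N-DZ, against 7.37 and 5.57 for the low lines, so the excess of DDX1 was larger than that of its neighbor. MYCN itself (chr2:16060521-16087129) was at 571 and 774 FPKM in the low lines BE(2)-C and Kelly and at 505 and 184 FPKM in the high lines CHP134 and SK-N-DZ. The lines split by DDX1 were thus not split alike by MYCN: the high lines were the lower ones, and the gap between CHP134 and BE(2)-C was 0.18 on the log2 scale. MYCNOS, a noncoding RNA antisense to MYCN, was at 87.9, 161, 167 and 52.8 FPKM in the same order and overlapped between the sides. The library kit does not mark strand, so that MYCN and MYCNOS reads from their shared stretch cannot be told apart.

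Beyond named genes, the table lists assembled loci without a gene name, and around DDX1 these followed the lines closely (positions chosen after their values were seen, and given without a test). The locus at chr2:15728251-15730305, 997 bases before DDX1, was at 0.184 and 0.49 FPKM in the low lines BE(2)-C and Kelly and at 18.8 and 15.8 FPKM in the high lines CHP134 and SK-N-DZ. The locus at chr2:15774566-15776507, just after it, was at 0.262, 0.271, 28 and 16.3 FPKM in the same order. Each is seen at a level far above the low lines in both DDX1-high lines, and neither overlaps a gene in GENCODE 44.

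Position by position, the 4 amplified lines did not share one pattern (the plot of levels around DDX1). Before NBAS, between chr2:14836585 and 15224218, 18 loci were listed, of which 16 had no gene name and several share their coordinates, and all 18 reached 1 FPKM in CHP134 but only 1 in Kelly and 0 in BE(2)-C and SK-N-DZ. A locus in that stretch at chr2:15126811-15138355 was at 57.0 FPKM in CHP134, against 2.48 in Kelly, 0.701 in SK-N-DZ and 0 in BE(2)-C. Of the 7 loci between DDX1 and MYCN, all 7 reached 1 FPKM in Kelly, 5 in SK-N-DZ, 2 in CHP134 and 0 in BE(2)-C. After MYCN, the 21 loci up to chr2:16690061 were divided otherwise, with 14 that reached 1 FPKM in BE(2)-C and 7 in Kelly, against 2 in SK-N-DZ and 1 in CHP134. The noncoding RNA locus AC010745.1 in that stretch was at 10.4 and 3.38 FPKM in the low lines BE(2)-C and Kelly and at 0 and 0.551 FPKM in the high lines CHP134 and SK-N-DZ, and AC008278.2, between NBAS and DDX1, was at 26.2 FPKM in SK-N-DZ and at 0.012 to 0.267 FPKM in the other amplified lines. None of the 46 loci in these 3 outer stretches reached 1 FPKM in SK-N-AS or SY5Y. Signal in the stretch to the left of NBAS was thus seen mainly in CHP134, and to the right of MYCN mainly in BE(2)-C and Kelly. FAM84A, farther left, was at 0.0429 and 2.14 FPKM in the low lines and at 1.80 and 1.48 FPKM in the high lines. DNA copy number was not measured.

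**Figure D1:**
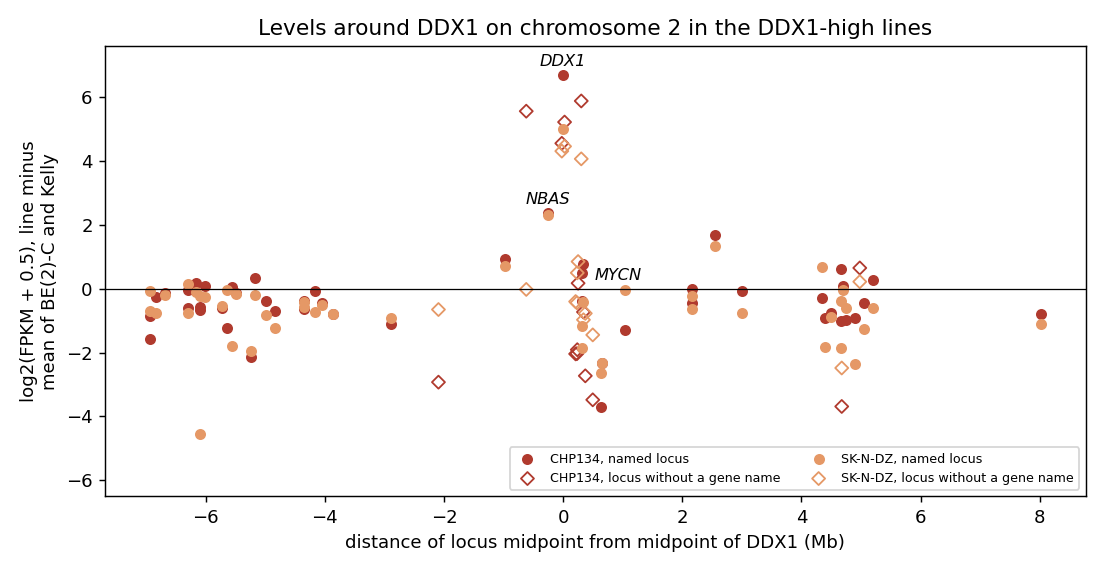
Level of each locus within about 8 Mb of DDX1 on chromosome 2 in CHP134 (dark red) and SK-N-DZ (orange), as log2(FPKM + 0.5) minus the mean of BE(2)-C and Kelly, against distance from the midpoint of DDX1 in Mb; filled circles are named loci and open diamonds loci without a gene name, all at 1 FPKM or more in at least 2 of the 4 lines. DDX1 stands highest, NBAS and loci without a name near DDX1 are high in both lines, and most loci farther away lie a little below 0.

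Genes farther along the short arm of chromosome 2 did not go with DDX1. Of 18 tested genes of a list of 2p24 neighbors, only NBAS and KCNS3 stood apart by more than 1 on the log2 scale, both higher (11.1%, against 1.78% of all tested loci). In the other direction 8 lay wholly lower, with both high lines below both low lines (44.4%, against 19.7%), and 13 of the 18 had a negative difference, with a median of -0.62. KCNS3, which encodes a subunit that modulates potassium channels, was low in level throughout, at 0.219 and 0.375 FPKM in the low lines and 2.06 and 1.48 FPKM in the high lines. In contrast, WDR35, a gene for a protein of transport in cilia, was at 13.5 and 15.1 FPKM in BE(2)-C and Kelly, against 7.27 and 3.66 in CHP134 and SK-N-DZ. LAPTM4A, a gene for a lysosomal membrane protein, was at 40.3, 39.9, 23.5 and 21.6 FPKM in the same order. The 21 tested genes of 2p25 had a median of -0.58, with 18 of 21 negative. From 25 to 50 Mb, 92 of 114 loci were negative, with a median of -0.61, which was -0.53 for CHP134 against Kelly and -0.56 for SK-N-DZ against BE(2)-C. Across all tested loci the median difference was -0.02, and it was 0.02 after quantile scaling. The first 50 Mb of the short arm, outside the NBAS and DDX1 stretch, were thus a little lower in both DDX1-high lines. Farther in, the windows from 60 to 65 Mb and from 70 to 75 Mb had medians of 0.24 and 0.12, each with opposite signs in these 2 pairs of lines.

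Other chromosomes showed shifts as well, though the medians over whole chromosomes given here were smaller in size than the -0.61 from 25 to 50 Mb of chromosome 2. The median was -0.24 over 1206 loci of chromosome 1 and -0.32 over 277 loci of chromosome 22, and it was 0.24 on chromosome 11, 0.35 on chromosome 13 and 0.36 on chromosome 18. That of chromosome 13 was 0.058 for CHP134 against Kelly and 0.695 for SK-N-DZ against BE(2)-C. By 5 Mb windows of at least 20 loci, the highest medians were on chromosome 11 from 0 to 5 Mb (0.87, 48 loci) and on chromosome 2 from 85 to 90 Mb (0.85, 28 loci), and the lowest were on chromosome 1 from 145 to 150 Mb (-0.84, 34 loci) and chromosome 2 from 25 to 30 Mb (-0.80, 47 loci). Each of these 4 windows had its sign in both pairs of lines that share a basal medium. The windows were picked as the extremes and are given as a description.

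The difference between the sides was then taken for every named locus other than DDX1 with at least 1 FPKM in at least 2 of the 4 lines (11943 loci), as the mean of CHP134 and SK-N-DZ minus the mean of BE(2)-C and Kelly on log2(FPKM + 0.5). That scale understates the change of low loci. In limma's moderated test, with an absolute log2 difference above 1 and an adjusted p below 0.05, 2 loci (0.0167%) fell in the DDX1-high lines and none (0%) rose. At an unadjusted p below 0.05, 388 loci were higher and 527 lower, and the lowest adjusted p of a higher locus was 0.146. Because the groups were formed from a value of the same 4 libraries, these p-values describe the spread between lines only. With so few lines, a second measure was used that needs no test: a locus was taken as apart where the gap between the nearer lines of each side was above 1 on the log2 scale, that is more than 2-fold in FPKM + 0.5. By this measure 212 loci (1.78%) were higher and 286 (2.39%) lower in both DDX1-high lines. A negative difference of any size was found at 6159 of the 11943 loci. Without any minimum for the gap, 2067 loci (17.3%) lay wholly higher and 2355 (19.7%) wholly lower. These percentages are the background for each list below.

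The 2 loci that fell were IGF2 and CYB561. IGF2, an imprinted gene for a fetal growth factor (chr11:2150342-2182571, a locus merged with INS and INS-IGF2), was at 93.5 and 203 FPKM in the low lines BE(2)-C and Kelly and at 0.0473 and 0.0178 FPKM in the high lines CHP134 and SK-N-DZ. It was near 0 in both DDX1-high lines and abundant in the others, SK-N-AS (199 FPKM) and SY5Y (10.7 FPKM) included. The difference was -8.02 (SE 0.50, adjusted p = 0.0476, limma with Benjamini-Hochberg adjustment). IGF2-AS, transcribed from the opposite strand of the same stretch, was at 5.01 and 6.24 FPKM in BE(2)-C and Kelly and at 0 in CHP134 and SK-N-DZ. Since the library kit does not mark strand, its reads cannot be told apart from those of IGF2 where the genes overlap. H19, the imprinted noncoding RNA next to IGF2, was at 0.205 to 0.511 FPKM in the other amplified lines and at 11.1 FPKM in SK-N-DZ. The window of chromosome 11 that holds IGF2 is the one with the highest median, so that the sign of IGF2 was opposite to that of most of its neighbors.

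CYB561, a gene for the cytochrome that carries electrons into the granules that store catecholamines (chr17:61012763-61523739, a locus merged with noncoding RNAs), was at 103 and 125 FPKM in the low lines BE(2)-C and Kelly and at 2.39 and 2.45 FPKM in the high lines CHP134 and SK-N-DZ. The sides did not overlap, each was tight, and SK-N-AS and SY5Y (51.6 and 146 FPKM) lay with the DDX1-low lines. The difference was -5.28 (SE 0.36, adjusted p = 0.0476). The call of both genes was lost with culture medium as a covariate (IGF2 adjusted p = 0.146, CYB561 adjusted p = 0.211), with SK-N-AS and SY5Y added as a group of their own (0.218 and 0.115) and with no trend in the variance (0.111 and 0.121). Without Kelly or without BE(2)-C, CYB561 had an adjusted p of 0.197 or 0.336, and IGF2, which was then above 1 FPKM in a single line, was not tested.

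The 250 bases before 2 of the 4 starts that RefSeq lists for CYB561 (GRCh38.p14) are printed, since CYB561 was called and TFAP2B, which encodes the transcription factor AP-2 beta, was low in the same lines. The first holds the AP-2 palindrome GCCNNNGGC, and the second holds the E-box CACGTG, the sequence that MYC proteins bind, in 2 places. Matches are in capitals, both motifs read the same on either strand, and they do not overlap.
CYB561 start A, chr17:63446640-63446889, minus strand: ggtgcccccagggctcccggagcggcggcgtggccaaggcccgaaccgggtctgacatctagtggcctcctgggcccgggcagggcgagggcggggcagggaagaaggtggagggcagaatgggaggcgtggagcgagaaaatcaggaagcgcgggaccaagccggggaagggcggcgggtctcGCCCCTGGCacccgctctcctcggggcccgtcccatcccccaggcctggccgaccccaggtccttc
CYB561 start B, chr17:63446307-63446556, minus strand: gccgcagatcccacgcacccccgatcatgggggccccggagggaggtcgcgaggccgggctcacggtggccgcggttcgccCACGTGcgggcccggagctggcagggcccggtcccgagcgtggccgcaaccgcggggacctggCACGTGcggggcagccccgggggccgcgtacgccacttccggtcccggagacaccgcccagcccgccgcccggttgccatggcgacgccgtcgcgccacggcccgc
The other starts of CYB561 hold neither. The stretches of DDC and CHGA, which were lower as well, hold no AP-2 palindrome. It occurs in 1 stretch each of RET, which was lower, and LRRN1, which was higher. A link between TFAP2B and CYB561 was not tested. Of all 35116 such stretches in the table, 19.8% hold the AP-2 palindrome and 6.34% the E-box. For the promoters of tested loci these shares were 26.2% and 8.58% (12865 promoters of 8113 loci). Among the loci that were lower and apart they were 24.4% and 4.48% (357 promoters of 188 loci), and among those that were higher and apart 29.2% and 8.05% (236 promoters of 135 loci). A match describes the letters only.

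The widest gaps among loci that were lower in the DDX1-high lines belonged to IGF2, RGS5, FABP5P7, CYB561, TFAP2B, HMP19, CYGB, FAR2, HGF, RGS16, SLC18A1 and the merged locus of DGKG and ETV5. RGS5, a gene for a regulator that shortens signals of G proteins, was at 869 and 2428 FPKM in the low lines BE(2)-C and Kelly and at 16.6 and 9.47 FPKM in the high lines CHP134 and SK-N-DZ (adjusted p = 0.084). SK-N-AS and SY5Y had 2233 and 2487 FPKM, so that low RGS5 was seen in the DDX1-high lines alone. TFAP2B was at 18 and 29.1 FPKM in the low lines and at 0 and 0.0558 FPKM in the high lines (adjusted p = 0.084). HMP19, a neuronal gene for a protein of vesicle traffic, was at 206, 242, 6.40 and 8.93 FPKM in the same order (adjusted p = 0.0601). FAR2, which encodes an enzyme that makes fatty alcohols, was at 29.8, 30.4, 0.611 and 1.12 FPKM (adjusted p = 0.0997). These 4 genes missed the threshold, with differences from -6.80 (RGS5) to -4.51 (FAR2). HGF, the ligand of the receptor MET, was at 38.9 and 11.3 FPKM in the low lines BE(2)-C and Kelly and at 0.0589 and 0.15 FPKM in the high lines CHP134 and SK-N-DZ. FABP5P7 is a pseudogene that may share reads with FABP5, so that its level (124, 148, 0.107 and 2.17 FPKM) is uncertain, and the FABP5 locus itself was at 2.64 FPKM or more in the low lines and at 0.0885 FPKM or less in the high lines.

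Among loci that were higher, the widest gaps were those of EYS, LRRN1, RBM24, PTGFR, FBN2, AMOTL2, GCHFR, EPB41L2, DLG3, FAM162B, IGSF11 and CDO1. EYS, a gene known for its product in the photoreceptors of the eye, was at 0.00659 and 0.00134 FPKM in the low lines BE(2)-C and Kelly and at 17.6 and 9.42 FPKM in the high lines CHP134 and SK-N-DZ, within a merged locus on chromosome 6 (difference 4.74, SE 0.53, adjusted p = 0.16). LRRN1, which encodes a neuronal membrane protein with leucine-rich repeats, was at 0 in both low lines and at 12.0 and 4.99 FPKM in CHP134 and SK-N-DZ. GCHFR, a gene for the feedback inhibitor of GTP cyclohydrolase, the enzyme that begins the synthesis of the tetrahydrobiopterin cofactor of tyrosine hydroxylase, was at 0.328, 1.52, 13.9 and 16.1 FPKM, low lines first. The enzyme itself, GCH1, overlapped, at 9.01, 6.01, 18.4 and 2.08 FPKM. DLG3, a scaffold of synapses, was at 0.0711, 2.46, 20.5 and 27.1 FPKM, and FBN2, a fibrillin of elastic fibers, was at 3.33 and 3.27 FPKM in the high lines and at 0 and 0.00038 FPKM in the low lines. Most of these higher loci were near 0 in the low lines and of moderate level in the high lines, while several of the lower loci were abundant in the low lines. EYS, LRRN1, RBM24, PTGFR, FBN2, AMOTL2, FAM162B, IGSF11 and CDO1 passed the minimum through the DDX1-high lines alone. IGF2, TFAP2B, CYGB, HGF, RGS16, SLC18A1 and the merged locus of DGKG and ETV5 passed it through the DDX1-low lines alone. A level near 0 on the other side thus follows in part from the minimum and from the ranking by gap.

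**Figure D2:**
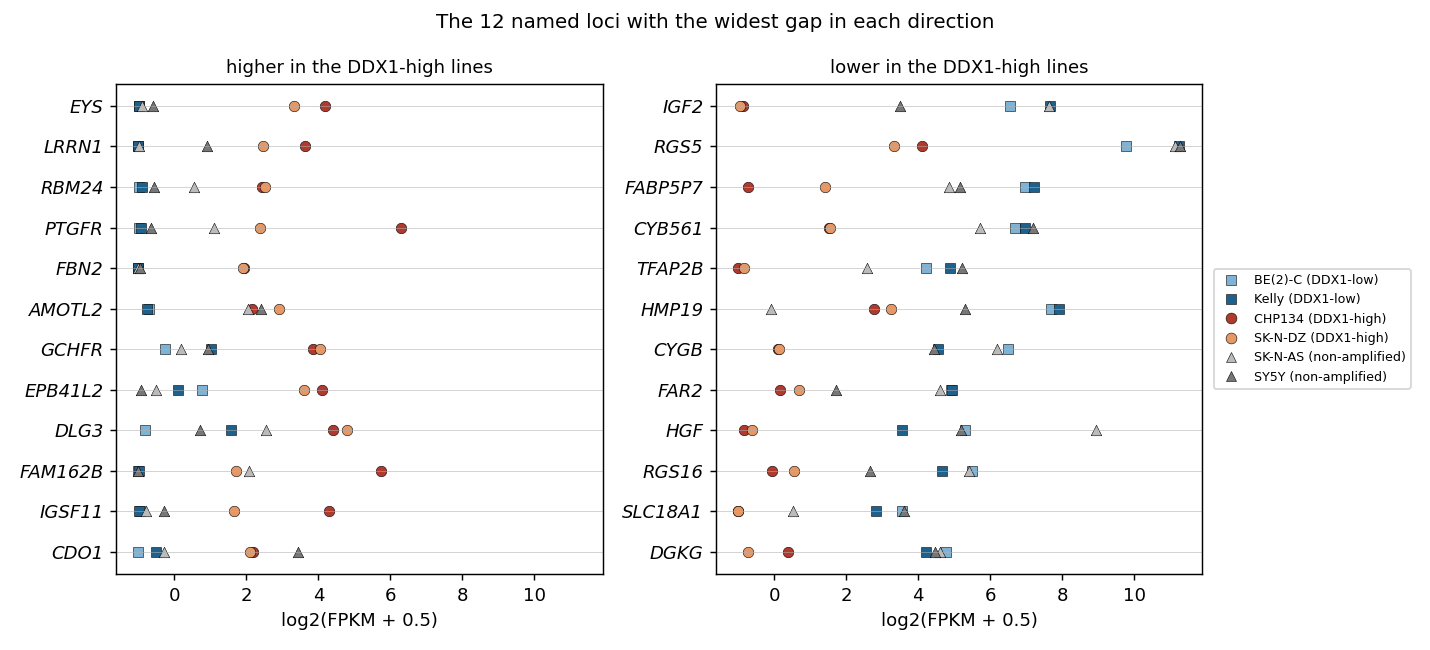
Level on the log2(FPKM + 0.5) scale of the 12 named loci with the widest gap in each direction, 1 point per cell line; circles are the DDX1-high lines, squares the DDX1-low lines and triangles the non-amplified lines. IGF2 and RGS5 are high in SK-N-AS and SY5Y and low in CHP134 and SK-N-DZ, and AMOTL2, FAM162B and CDO1 reach the level of the DDX1-high lines in at least 1 non-amplified line.

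SK-N-AS and SY5Y, which the split did not use, more often lay clear of both DDX1-high lines than of both DDX1-low lines. For the loci that were lower and apart, both non-amplified lines were above both DDX1-high lines at 221 of 286 (77.3%), and both were below both DDX1-low lines at 102 (35.7%). Where loci were higher and apart, both non-amplified lines were below both DDX1-high lines at 134 of 212 (63.2%) and above both DDX1-low lines at 107 (50.5%). At 51 of the lower and 46 of the higher loci both held, so that the non-amplified lines lay between the sides. Among all loci with no overlap the first of these shares was 54.8% for lower and 48.4% for higher loci. The second was 37.2% and 44.4%, so that the higher loci were nearly even. These shares are a description, since the loci were chosen by their gap in the same table.

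Genes of catecholamine synthesis and storage, the trade of sympathetic cells, were lower as a group in the DDX1-high lines. Of 18 tested members, 1 was called (CYB561), 7 were apart and lower (38.9%, against 2.39% of all tested loci), none was apart and higher, and 17 of 18 had a negative difference. The median was -1.58, and it was -1.58 with quantile scaling and -1.56 with size factors, against -0.02 for all tested loci. DDC, the enzyme that makes dopamine from L-DOPA, was at 151 and 295 FPKM in the low lines BE(2)-C and Kelly and at 1.98 and 26 FPKM in the high lines CHP134 and SK-N-DZ. SLC18A1, a transporter that loads monoamines into vesicles, was at 11.2, 6.62, 0 and 0.00101 FPKM in the same order. Its relative SLC18A2 was at 3.08, 43.6, 1.06 and 0.482 FPKM. Both transporters were thus lowest in CHP134 and SK-N-DZ among the amplified lines, though SLC18A2 was lower still in SK-N-AS and SY5Y (0.265 and 0.123 FPKM). CHGA, which encodes the granule protein chromogranin A, was at 503 and 1291 FPKM in the low lines BE(2)-C and Kelly and at 94.3 and 97.3 FPKM in the high lines CHP134 and SK-N-DZ. The non-amplified lines were near the DDX1-high lines for this gene, at 86.6 and 85.2 FPKM. CHGB was at 54.4, 36.3, 15.1 and 7.34 FPKM, and SLC6A2, the noradrenaline transporter that takes up the imaging agent MIBG, was at 23.2, 12.4, 0.924 and 5.33 FPKM. None of DDC, SLC18A1, SLC18A2, CHGA, CHGB and SLC6A2 passed limma's threshold (adjusted p from 0.204 to 0.586).

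Other members of the pathway split the lines less clearly or not at all. DBH, which makes noradrenaline from dopamine, was at 11.2 and 122 FPKM in the low lines BE(2)-C and Kelly and at 0.096 and 24.9 FPKM in the high lines CHP134 and SK-N-DZ, so that the sides overlapped. TH, the first enzyme of the pathway, was at 0.922, 72.5, 0.261 and 0.628 FPKM. It lay lower in both high lines, by a gap of 0.34, but did not pass the minimum, since it reached 1 FPKM in Kelly only. MAOA, which breaks monoamines down, was at 0.11, 88.3, 2.33 and 48.0 FPKM, and was the 1 member with a positive difference. Several granule proteins overlapped as well, among them SCG2 (178, 17.1, 39.1 and 15.8 FPKM), VGF (25.1, 3.49, 10.7 and 1.48 FPKM) and the neuropeptide NPY (71.2, 3.38, 3.95 and 34.5 FPKM). In all, 10 of the 18 tested members lay wholly lower (55.6%, against 19.7% of all tested loci).

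**Figure D3:**
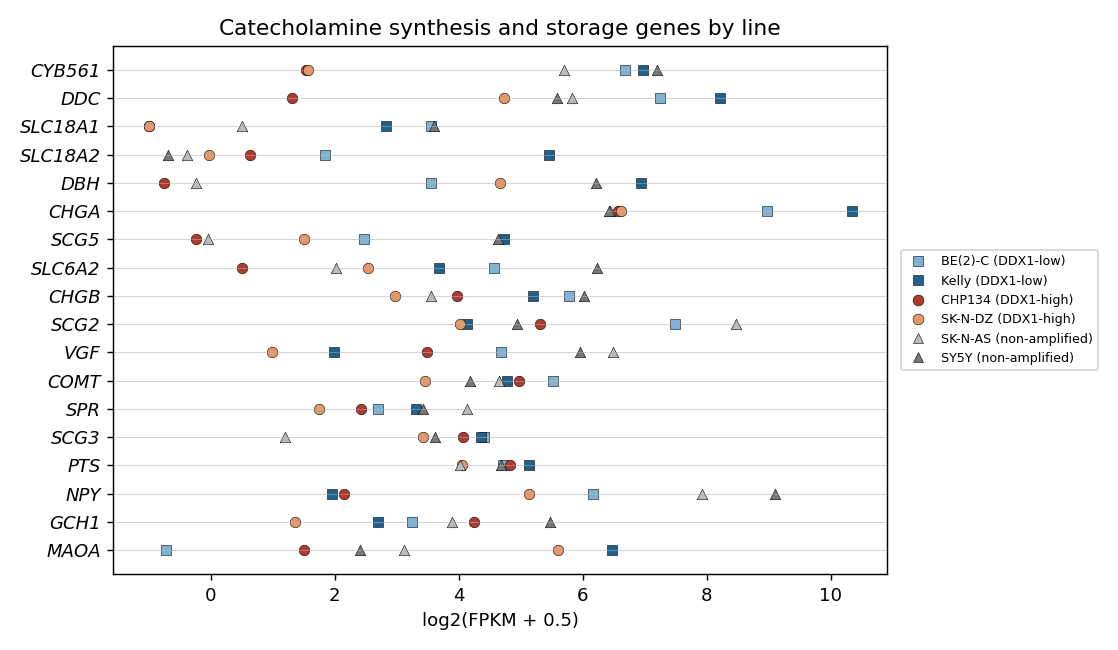
Level on the log2(FPKM + 0.5) scale of the 18 tested genes of catecholamine synthesis and storage, 1 point per cell line, with the genes ordered by their difference; circles are the DDX1-high lines, squares the DDX1-low lines and triangles the non-amplified lines. CYB561 and SLC18A1 show the clearest separation, and DBH and MAOA overlap.

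The regulators of the adrenergic state, the transcription factors that keep neuroblastoma cells in a sympathetic identity, were mixed. Of 29 tested loci, 5 were apart and higher (17.2%, against 1.78% of all tested loci) and 3 apart and lower (10.3%, against 2.39%). The median was -0.30. TFAP2B, HEY1 and GATA2 were the lower ones. GATA2 was at 57.6 and 93.5 FPKM in the low lines BE(2)-C and Kelly and at 6.07 and 28.2 FPKM in the high lines CHP134 and SK-N-DZ. HEY1, a target of Notch signaling, was at 5.46, 6.73, 0.84 and 0.356 FPKM. SOX11, a factor of immature neurons, was at 0.00893 and 8.0 FPKM in the low lines BE(2)-C and Kelly and at 23.6 and 25.2 FPKM in the high lines CHP134 and SK-N-DZ at the first of its loci in the table, and INSM1, MEIS1 and SATB1 were apart and higher as well. SOX11 is listed at 2 loci with the same coordinates, so that the 5 higher loci stand for 4 genes. ISL1 overlapped, at 19.9, 26.8, 22.8 and 27.2 FPKM. ISL1, HAND2 and GATA3 were thus present on both sides. Among 9 tested mesenchymal regulators, 5 lay wholly higher (55.6%, against 17.3% of all tested loci) and 1 wholly lower (11.1%, against 19.7%). By more than 1, 1 was apart and higher (11.1%, against 1.78%) and FOSL2 was apart and lower (11.1%, against 2.39%). The median was 0.77. FN1, the gene for fibronectin, was at 0.53, 1.82, 2.38 and 19.3 FPKM. VIM, the gene for vimentin, overlapped, at 8.79, 17.4, 114 and 7.40 FPKM.

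Partners of DDX1 mostly overlapped between the sides. Of 19 tested members of the list of tRNA ligase and DDX1 complexes, none was apart, which in so short a list is near the shares of all tested loci (1.78% and 2.39%). Of the 19, 1 lay wholly higher (5.26%, against 17.3% of all tested loci) and 3 wholly lower (15.8%, against 19.7%), and the median was 0.11. The ligase RTCB, listed as C22orf28, was at 61.6 and 97.9 FPKM in the low lines BE(2)-C and Kelly and at 94.4 and 67.5 FPKM in the high lines CHP134 and SK-N-DZ. C14orf166, another subunit of the complex, was at 105, 106, 152 and 98.7 FPKM, and ZBTB8OS, which encodes the archease that reactivates the ligase, was at 24.3, 48.8, 70.7 and 35.9 FPKM. FAM98A, a further partner, was at 24.2, 33.7, 27.5 and 16.2 FPKM. These 4 overlapped between the sides, while DDX1 was at 3295 FPKM or more in the high lines. FAM98B, at 2.07 and 1.52 against 3.28 and 4.10 FPKM at 1 of its 2 loci, was the 1 member that lay wholly higher. TSEN34, a subunit of the endonuclease that cuts tRNA introns, was at 19.7, 24.5, 10.7 and 11.8 FPKM, and XBP1, whose mRNA is spliced by the same ligase, was at 64.1, 46.4, 37.3 and 24.8 FPKM. Among 48 other tested DEAD-box and DEAH-box helicase loci, DHX35 alone was apart (2.08%, against 1.78% of all tested loci). It was at 3.63 and 5.11 FPKM in the low lines and 14.2 and 11.4 in the high lines.

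Neither the list of MYC and MYCN activated targets nor that of cell cycle genes had a member that stood apart. Over all tested loci 1.78% were apart and higher and 2.39% apart and lower. None in lists of 42 and 43 is near those shares. Among 42 tested MYC and MYCN activated targets 8 lay wholly higher (19%, against 17.3% of all tested loci) and 11 wholly lower (26.2%, against 19.7%). Their median was -0.04. Of 43 cell cycle genes, 12 lay wholly higher (27.9%) and 2 wholly lower (4.65%), with a median of 0.22. RRM1, a subunit of ribonucleotide reductase, was at 57.4 and 54.1 FPKM in BE(2)-C and Kelly and 111 in each of CHP134 and SK-N-DZ. E2F1 was at 33.6, 36.6, 72.2 and 44.5 FPKM in the same order. The noncoding RNA that the study is about, lncNB1, was at 5.08, 11.5, 8.99 and 8.93 FPKM and overlapped, and it was at 0.00464 FPKM or less in the non-amplified lines. RPL35, the ribosomal protein that it binds, was lower by a gap of 0.03 only. LIN28B, which blocks the maturation of let-7 microRNAs, was at 20.9, 52.8, 16.5 and 27.4 FPKM. Of the 7 tested loci of its list of LIN28B axis and oncofetal genes, 2 were apart and lower (28.6%, against 2.39% of all tested loci), namely IGF2 and DLK1.

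Most interferon genes did not reach the minimum, and those that did were mostly lower in the DDX1-high lines. Only 12 of 33 interferon and double-stranded RNA sensing loci passed the minimum, of which 11 had a negative difference (6159 of 11943 among all tested loci), with a median of -0.59. Of the 12, 7 lay wholly lower (58.3%, against 19.7% of all tested loci) and 1 wholly higher (8.33%, against 17.3%). EIF2AK2 alone was apart, and lower (8.33%, against 2.39%). EIF2AK2, the gene for the kinase PKR that senses double-stranded RNA, was at 14 and 16 FPKM in BE(2)-C and Kelly and 6.18 and 5.56 FPKM in CHP134 and SK-N-DZ. ADAR, which encodes an enzyme that edits such RNA, was at 41.6, 51.4, 25.9 and 17.6 FPKM. These genes were about as high in SK-N-AS and SY5Y as in the DDX1-low lines. In the MHC class I group, all 9 tested genes were negative in difference, with a median of -0.45, and 4 lay wholly lower (44.4%, against 19.7% of all tested loci). Of them 1, HLA-C, was apart (11.1%, against 2.39% of all tested loci). It passed the minimum through the DDX1-low lines alone. HLA-C was at 19.4 and 1.42 FPKM in the low lines and at 0 and 0.0289 FPKM in the high lines, though reads of HLA genes may be shared between relatives. B2M, the invariant chain of MHC class I, was at 694, 247, 154 and 90.7 FPKM. EIF2AK2 lies at 37.3 Mb of chromosome 2, in the stretch from 25 to 50 Mb with a median of -0.61, and ADAR on chromosome 1, with a median of -0.24. The part of these positions in the differences was not tested.

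Cell surface genes went both ways. Of 24 tested receptor tyrosine kinase and ligand loci, IGF2 and RET were apart and lower (8.33%, against 2.39% of all tested loci). NTRK3 was apart and higher (4.17%, against 1.78%). RET, a receptor of the GDNF family of ligands, was at 25.3 and 17.0 FPKM in the low lines BE(2)-C and Kelly and at 0.181 and 5.69 FPKM in the high lines CHP134 and SK-N-DZ. NTRK3, the receptor of neurotrophin 3, was at 0.192, 0.325, 3.72 and 2.80 FPKM. ALK, a kinase mutated in some neuroblastomas, overlapped at 2.31, 7.69, 2.03 and 3.38 FPKM. Among the genes of neuroblastoma surface antigens, ST8SIA1, which encodes the synthase of the ganglioside GD3 on the way to GD2, was at 0.142, 0.695, 3.73 and 8.14 FPKM, and GPC2, a glypican, was at 1.65, 3.06, 22.9 and 11 FPKM. DLK1, a surface protein of the Notch ligand type, went the other way, at 97.2, 154, 6.95 and 0.412 FPKM. ST8SIA1 and GPC2 were thus higher, and DLK1 and SLC6A2 lower, in both DDX1-high lines. In the matrix list, 3 of 18 tested loci were apart and higher (FBN2, COL14A1 and TNC, 16.7%, against 1.78% of all tested loci). Another 3 were apart and lower (LAMA4, LAMC1 and ELN, 16.7%, against 2.39%). None of the loci named in this paragraph other than IGF2 passed limma's threshold.

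**Figure D4:**
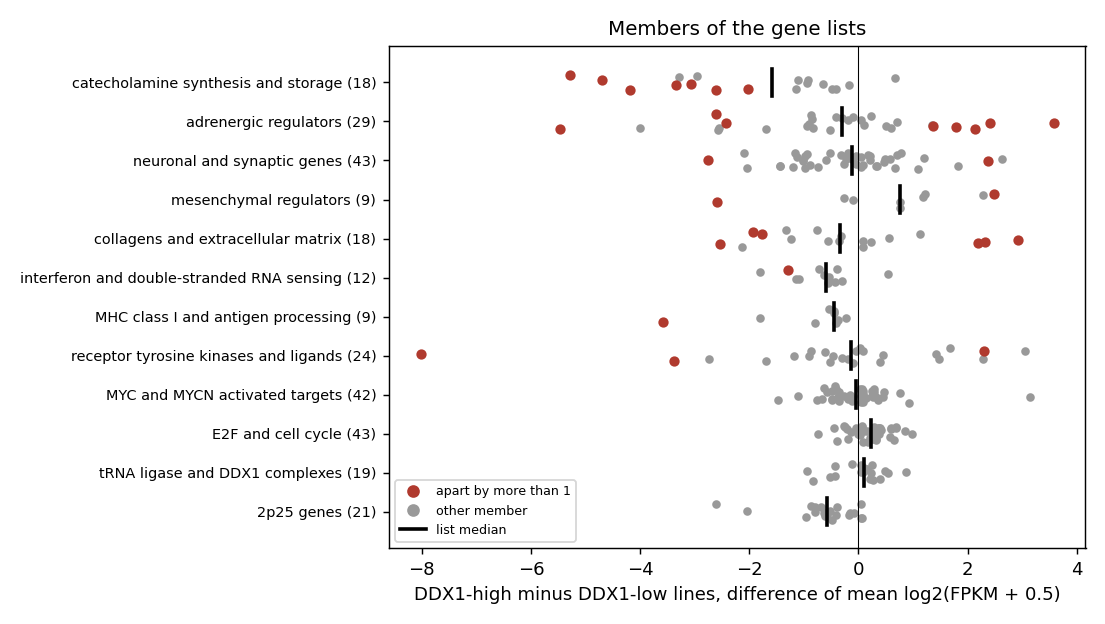
Difference between the DDX1-high and DDX1-low lines of each tested member of 12 gene lists, as mean log2(FPKM + 0.5) of the high lines minus that of the low lines; 1 point per locus, red where the sides are apart by more than 1, with a black bar at the list median and the number of tested members in parentheses. The catecholamine list has the lowest median (-1.58), and the cell cycle, MYCN target, tRNA ligase and 2p25 lists have no red point. Over all tested loci 1.78% were apart and higher and 2.39% apart and lower.

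The pairs of lines that share a basal medium allowed the same comparison within RPMI and within DMEM, although non-essential amino acids were added for SK-N-DZ and not for BE(2)-C. In the RPMI pair (CHP134 minus Kelly) 2779 loci differed by more than 1 on the log2 scale in either direction, and in the DMEM pair (SK-N-DZ minus BE(2)-C) 2924 did. Both pairs were above 1 at 334 loci and both below -1 at 409. The pairs went opposite ways by more than 1 at 241 and 231 loci. Where both pairs differed by more than 1, the same direction was thus the more frequent. Most loci that differed by more than 1 in either pair did not do so in the same direction in the other. IGF2 had differences of -8.54 in RPMI and -7.50 in DMEM, and CYB561 of -5.43 and -5.12. The values of NBAS were 2.05 and 2.61. For the catecholamine list the medians were -2.21 and -1.96. The differences of IGF2, CYB561 and NBAS and this list median thus had about the same size in each medium. Other loci named in the report differed more between the pairs. PTGFR had 7.22 in RPMI and 3.36 in DMEM, and DLG3 had 2.83 and 5.59. The signs were opposite for MAOA (-4.97 in RPMI and 6.31 in DMEM) and DBH (-7.68 and 1.12).

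**Figure D5:**
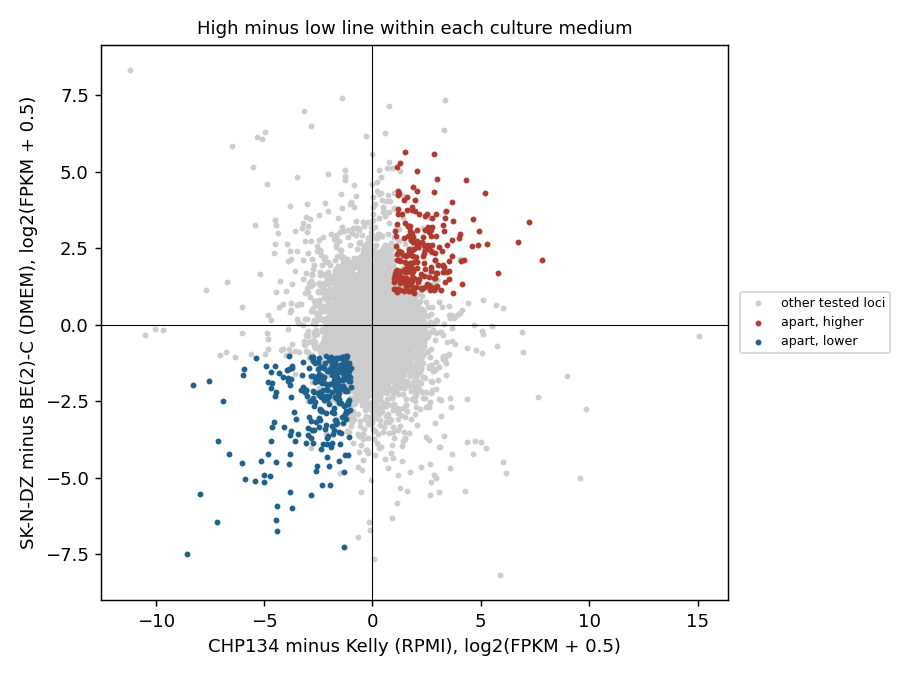
Difference of each tested locus on the log2(FPKM + 0.5) scale, CHP134 minus Kelly (both in RPMI) on the horizontal axis and SK-N-DZ minus BE(2)-C (both in DMEM) on the vertical axis; red and blue points are loci apart by more than 1, higher (212) or lower (286). Grey points fill all 4 quadrants, and 241 and 231 loci differ by more than 1 in opposite directions. XIST and loci of chromosome Y are not drawn.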

How the data were processed

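RNA of 6 neuroblastoma cell lines was depleted of ribosomal RNA and sequenced once per line, as 100-base read pairs in a shared lane. Per the methods of the study, STAR placed the reads on hg19. The deposited table lists 19170 assembled loci, 16223 of them with a gene name, and it names no unit. Since fractions occur and the sums differ between lines, the deposited values were taken to be FPKM computed by the authors. The assembly step and its tool are not given in the sources used here, and the counts on which the authors ran edgeR with TMM scaling were not analysed here. Whole reads could not be recovered, so that depth is unknown and counting intervals cannot be given. 0 columns of values were left unused, and 2493 of the tested loci merge several genes.

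MYCN-amplified lines with DDX1 above 1000 were compared with the others on log2(FPKM + 0.5). Named loci that reached 1 FPKM in 2 or more of the 4 lines were tested, DDX1 left out, with limma 3.58.1 in R 4.3.3 (lmFit, eBayes with a trend), and called where the log2 difference exceeded 1 in size and the p adjusted after Benjamini and Hochberg was under 0.05. The SE is limma's. A gap is the distance on the log2 scale between the nearest lines of the 2 sides, and loci with a gap above 1 are called apart. Limma was tested on simulated data. The members and all 29 gene lists were chosen with earlier results of these data known. Named are the measured 2p24 neighbors, the members of the DDX1 complexes, the 12 loci with the widest gap and up to 10 called loci in each direction (clone names, XIST and chromosome Y left out), and up to 5 members of each other list with the widest gap, with its defining members. Further members named in a list were chosen after their values were seen. A few members and positions are not reported here. Positions in the table are in hg19, set to count from 1, and overlapping genes come from GENCODE 44 on that build. Promoter sequences are RefSeq's on GRCh38.p14. Alternatives varied the pseudocount, filter, scaling, variance model, threshold, medium and lines. Figures were drawn with matplotlib 3.10.9.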

Additional observations from a re-analysis of the deposited data

Results flagged for a closer look

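Loci without a gene name stood outside the comparison of named loci, and 479 of them passed the minimum. Of these 479, 18 were apart by more than 1 on the log2 scale and higher in the DDX1-high lines, and 33 were apart and lower. Among the tested named loci these shares were 1.78% and 2.39%. The counts include loci of the DDX1 and MYCN stretch. Away from the DDX1 and MYCN stretch, the widest gap among higher loci was 2.64, at chr1:21533281-21533630 (hg19), which was listed at 0 for BE(2)-C and Kelly, at 2.63 FPKM for CHP134 and at 5.68 FPKM for SK-N-DZ. The non-amplified lines had 0.213 and 0.362 FPKM. The widest among lower loci was 2.51, at chr1:66843580-66946139, which was at 5.88 and 4.41 FPKM for BE(2)-C and Kelly, and at 0 and 0.364 FPKM for CHP134 and SK-N-DZ. SK-N-AS and SY5Y had 6.05 and 0.538 FPKM there. Neither stretch overlaps a gene in GENCODE 44.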

How the results depend on the processing

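With 2 lines against 2 and 1 library each, few calls are possible and the 2 made were not stable. The count of called loci was 0 higher under every alternative that kept all 4 lines, and the count of lower loci was 1 with a smaller pseudocount, 4 with a pseudocount of 2, 4 with a minimum of 5 FPKM, 2 with quantile scaling or size factors, and 0 with no filter, with singly named loci only, without the trend, with the non-amplified lines as a group, with culture medium as a covariate and with loci without a gene name added. A pseudocount of 2 left 94 higher and 158 lower loci apart, and the minimum of 5 FPKM left 87 and 170. Leaving out each line gave 0 to 6 calls higher and 0 to 27 lower, with 228 to 773 loci apart and higher and 539 to 876 apart and lower. The lone line of a side was then assumed to vary like the others, and a gap needs fewer lines to agree. The widest range of calls came without SK-N-DZ (6 higher and 27 lower), and the calls of both IGF2 and CYB561 were kept there and without CHP134. The cause of the other changes was not tested. The labels give no replicate numbers, and lines were paired only by basal medium, in the fit with culture medium as a covariate (0 calls, lowest adjusted p = 0.124 in limma).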
